A study of Mus musculus with 12 samples.

Results

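The genes described here are 10 coding genes whose mean level in Ebf2-EGFP+ cells of the embryonic mouse cortex was highest at E15.5: *Ndnf*, *Kcnip2*, *Cacna2d2*, *Clstn2*, *Spock1*, *Spock2*, *Xpr1*, *Caly*, *Ppp2r2c* and *B3gat1*. They are 10 of 4859 listed coding genes, of which 1891 (38.9%) also had their highest Ebf2-EGFP+ mean at E15.5. The genes were chosen by their mean FPKM in Ebf2-EGFP+ cells. Every value that ends at E15.5 in those cells is given as a description without a test. The rule also read the E11.5 and E13.5 means there but did not fix their order. Tests that use these means are not independent of the choice. The weakest peak was that of *Xpr1*, whose E15.5 mean was 1.52 times its next highest stage, and the strongest that of *Ndnf*, at 45.1 times. Among relatives of the 10 genes, *Ppp2r2b* lay just inside the same rule at 1.02 times and *Dpp6* just outside it at 0.976 times.

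RNA-seq covered the cerebral cortex of Tg(Ebf2-EGFP)FB58Gsat embryos, which carry an EGFP reporter driven by *Ebf2* regulatory sequence. Dissociated cells of embryonic days E11.5, E13.5 or E15.5 were separated by FACS into Ebf2-EGFP+ and Ebf2-EGFP- cells (EGFP+ and EGFP- below), with 2 biological replicates for each of the 6 groups and embryos pooled within a replicate. EGFP- cells came from the same transgenic embryos and, by the study's description, are a mixture of the remaining cortical cells, including cortical plate neurons at the later stages. The reporter marks early preplate neurons first and Cajal-Retzius (CR) cells later, and in bulk samples fewer cells of a type and less RNA per cell cannot be told apart. Levels are FPKM, which scale fragments by transcript length and by mapped fragments and can be compared between genes. Changes are differences in log2(FPKM + 1) with the standard error (SE) of a limma fit to all 12 libraries, and a gene was called at a Benjamini-Hochberg adjusted p under 0.05 over the 4859 genes.

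CR cells are among the first neurons of the cortex. They lie in the marginal zone, secrete the glycoprotein Reelin and help to order the neurons that migrate toward the surface. As they mature they acquire ion channels, synaptic adhesion molecules and matrix proteins, and several of the 10 genes belong to such classes. *Ndnf* encodes a secreted neurotrophic factor, *Spock1* and *Spock2* are extracellular matrix proteoglycans (testicans), and *B3gat1* encodes the glucuronyltransferase that makes the HNK-1 carbohydrate. *Kcnip2* and *Cacna2d2* are auxiliary subunits of Kv4 potassium channels and of voltage-gated calcium channels, and *Clstn2* is a synaptic cadherin-related protein. *Caly* acts in endocytic traffic, *Xpr1* exports phosphate from cells, and *Ppp2r2c* is a regulatory subunit of protein phosphatase 2A.

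The sort was checked against marker lists. Of 8 CR markers (*Reln*, *Trp73*, *Calb2*, *Lhx1*, *Lhx5*, *Ebf2*, *Ebf3* and *Nhlh2*), 8 were higher in both EGFP+ libraries than in both EGFP- libraries at each stage. Their summed level at E15.5 was 564 to 1150 FPKM in EGFP+ cells and 16.5 to 24.0 FPKM in EGFP- cells, and none was at 0. EGFP+ cells were not free of other neuronal markers: the 6 cortical plate markers summed to 674 to 1030 FPKM there at E15.5, beside 704 to 871 FPKM in EGFP- cells. The 8 ganglionic eminence or interneuron markers summed to 5.83 FPKM in both EGFP+ libraries at E15.5 and to 114 to 161 FPKM in EGFP- cells.

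The 10 genes fell into 2 patterns when the EGFP- cells were followed over time. The E15.5 peak by which they were chosen was read in EGFP+ cells alone. The EGFP- libraries still shaped the list, which holds genes reported to differ between the populations. In 7 genes, *Clstn2*, *Spock1*, *Spock2*, *Xpr1*, *Caly*, *Ppp2r2c* and *B3gat1*, the level also rose in EGFP- cells between E11.5 and E15.5, by 3.09-fold (*Xpr1*) to 27.6-fold (*Clstn2*) in mean FPKM. *Cacna2d2* fell there to 0.389 of its E11.5 mean, and *Ndnf* and *Kcnip2* were not called, at 0.152 and 2.09 times their E11.5 means. These genes outside the 7 thus shared no common course in EGFP- cells. The change of *Kcnip2*, 0.48 on the log2 scale (limma adjusted p = 0.0838), was called higher with 0.1 added before the log (adjusted p = 0.0114), with the compared groups only (adjusted p = 0.00607) and without EGFP+ E15.5 replicate 1 or 2 (adjusted p = 0.012 and 0.0109), so its place outside the 7 rests on the fit. The 7 calls upward compare with 37.7% of all listed genes, and the 1 call downward with 47.6%. Both E15.5 libraries of those cells lay above both E11.5 libraries in 8 genes, the 7 and *Kcnip2*, where 41.8% of listed genes did, and below them in *Ndnf* and *Cacna2d2*, where 51.5% did. The median change of the 10 genes in EGFP- cells over this interval was 1.92 on the log2 scale, against -0.32 over all listed genes and 0.96 over the 1891 listed genes with their EGFP+ peak at E15.5.

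**Figure D1:**
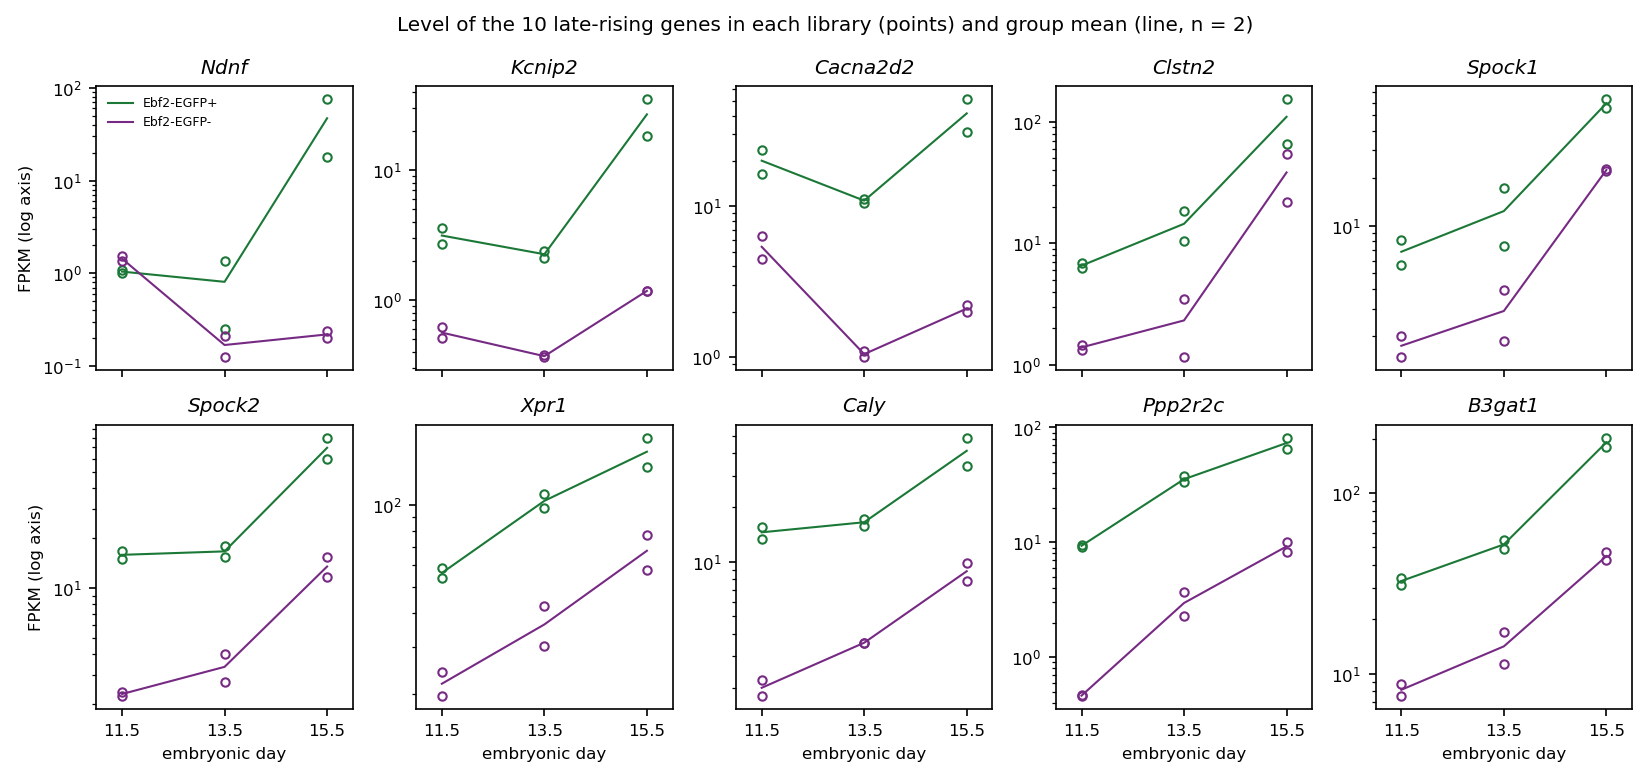
Level of each of the 10 genes in FPKM (log axis, scaled separately for each gene) against embryonic day; points are single libraries, lines join the means of 2 libraries, green is EGFP+ and purple EGFP-. The purple lines of *Clstn2*, *Spock1*, *Spock2*, *Xpr1*, *Caly*, *Ppp2r2c* and *B3gat1* climb beside the green ones, whereas those of *Ndnf* and *Cacna2d2* end below their E11.5 level.

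*Ndnf*, on chromosome 6 of GRCm38 from 65671590 to 65712326 (plus strand), had the sharpest peak. In EGFP+ cells it measured 1.08 and 1.00 FPKM at E11.5, 0.251 and 1.36 at E13.5, then 18.0 and 76.0 at E15.5. In EGFP- cells it measured 1.52 and 1.35 FPKM at E11.5, 0.212 and 0.124 at E13.5, then 0.238 and 0.200 at E15.5. At E11.5 both EGFP- libraries lay slightly above both EGFP+ libraries, and at E15.5 both EGFP+ libraries lay far above. The difference between them was -0.25 at E11.5 (SE 0.48, limma adjusted p = 0.635) and 0.56 at E13.5 (adjusted p = 0.304), and stood at 4.97 at E15.5. In mean FPKM the EGFP+ over EGFP- ratio was 0.725, 4.805 and 215 at the 3 stages.

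The size of the *Ndnf* peak rested on 2 unlike libraries, since replicate 2 held 4.23 times the FPKM of replicate 1 and the group mean was 47.0 ± 41.0 FPKM (SD, n = 2). The log2 change from E11.5 to E15.5 in EGFP+ cells was 4.23, and it was 3.22 without replicate 2 and 5.24 without replicate 1. Both EGFP- libraries at E15.5 lay below both at E11.5, but the change of -0.998 was not called (limma adjusted p = 0.0699). Without EGFP+ E15.5 replicate 1 or 2 the same change was called lower (adjusted p = 0.00212 and 0.0019), in a fit that shares 1 spread per gene over all groups. *Reln* was also higher in that replicate 2, at 925 FPKM beside 399 FPKM in replicate 1.

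*Kcnip2* (chromosome 19, 45791839 to 45816061, minus strand) was higher in EGFP+ cells from the start. It measured 3.58 and 2.69 FPKM at E11.5, 2.11 and 2.398 at E13.5, then 18.4 and 35.2 at E15.5 in EGFP+ cells. The EGFP- libraries held 0.619 and 0.507 FPKM, then 0.364 and 0.378, then 1.18 and 1.17. No level in EGFP- cells reached the lowest level in EGFP+ cells at any stage. The population difference was 1.40 at E11.5 (SE 0.24, limma adjusted p = 0.000225) and 1.25 at E13.5 (adjusted p = 0.00072), and was 3.60 at E15.5. In EGFP- cells *Kcnip2* rose by 0.67 from E13.5 to E15.5 (adjusted p = 0.0311), a call lost when any 1 of the 4 libraries compared was left out (adjusted p = 0.0753 to 0.112).

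*Cacna2d2* (chromosome 9, 107399612 to 107529343, plus strand) dipped at E13.5 in both populations. EGFP+ cells held 16.4 and 23.8 FPKM at E11.5, 11.2 and 10.6 at E13.5, then 31.1 and 51.6 at E15.5. EGFP- cells held 4.44 and 6.34 FPKM, then 1.09 and 0.998, then 2.22 and 1.98. The fall from E11.5 to E13.5 was -0.80 in EGFP+ cells (SE 0.25, limma adjusted p = 0.0161) and -1.63 in EGFP- cells (adjusted p = 0.000209). The 8 CR markers also had their lowest sum in EGFP+ cells at E13.5, at 377 to 425 FPKM, then 205 to 256, then 564 to 1150. *Reln* made up most of the E15.5 sum and did not dip, at 75.9 and 76.3, then 125 and 187, then 399 and 925 FPKM. The mean log2(FPKM + 1) of the 8 markers was 5.45, then 3.72, then 4.91, so on that scale they ended below E11.5. The part of the CR markers in the dip of *Cacna2d2* was not tested. In EGFP+ cells both E15.5 libraries of *Cacna2d2* lay above both at E11.5. In EGFP- cells it was lower at E15.5 than at E11.5, by -1.03 (adjusted p = 0.00207). The population ratio of mean FPKM accordingly widened from 3.73 through 10.4 to 19.7.

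*Clstn2* (chromosome 9, 97444395 to 98033181, minus strand) was highest at E15.5 in both populations. In EGFP+ cells it measured 6.84 and 6.26 FPKM at E11.5, 10.5 and 18.5 at E13.5, then 65.7 and 155 at E15.5. In EGFP- cells it measured 1.46 and 1.32 FPKM, then 1.15 and 3.49, then 21.8 and 54.9. The EGFP- level rose by 3.52 on the log2 scale from E13.5 to E15.5 (SE 0.48, limma adjusted p = 0.000264), the largest late step of the 10 genes in that population. Replicate 2 was higher than replicate 1 at E15.5 in both populations, by 2.35-fold and 2.52-fold. The population ratio narrowed to 2.87 at E15.5 from 4.71 at E11.5.

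The testican genes were likewise highest at E15.5 in both populations. *Spock1* (chromosome 13, 57421195 to 57908332, minus strand) measured 8.08 and 5.63, then 7.50 and 17.3, then 55.6 and 63.4 FPKM in EGFP+ cells. In EGFP- cells *Spock1* measured 2.01 and 1.48, then 1.87 and 3.92, then 22.1 and 23.0 FPKM. Its late step in EGFP- cells was 2.65 (SE 0.33, limma adjusted p = 0.000202), while the early step of 0.46 was not called (adjusted p = 0.246). *Spock2* (chromosome 10, 60106219 to 60135198, plus strand) measured 16.8 and 14.9, then 15.3 and 17.9, then 59.3 and 79.9 FPKM in EGFP+ cells. In EGFP- cells *Spock2* measured 2.37 and 2.24, then 2.71 and 3.997, then 11.6 and 15.3 FPKM. Its early step in EGFP+ cells was 0.06 and not called (SE 0.20, adjusted p = 0.801). At each stage both genes were higher in both EGFP+ libraries than in both EGFP- libraries.

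*B3gat1* (chromosome 9, 26733728 to 26763101, plus strand) had the highest EGFP+ mean of the 10 genes at E15.5, and it rose from E11.5 to E13.5 in both populations. It measured 34.1 and 31.1, then 49.1 and 54.8, then 179.5 and 202 FPKM in EGFP+ cells. In EGFP- cells it measured 7.52 and 8.79, then 11.3 and 17.1, then 42.4 and 47.0 FPKM. The early step was 0.66 in EGFP+ cells (SE 0.18, limma adjusted p = 0.00908) and 0.71 in EGFP- cells (adjusted p = 0.00605). The population ratio stayed near its start, at 3.998, 3.67 and 4.26.

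On the log2 scale, *Xpr1* and *Ppp2r2c* had a larger change before E13.5 than after it in EGFP+ cells, a contrast given without a test. In FPKM the later gain was the larger, with EGFP+ means of 56.1, 103.5 and 157 for *Xpr1* and 9.32, 35.5 and 73.2 for *Ppp2r2c*. *Xpr1* (chromosome 1, 155275701 to 155417415, minus strand) measured 58.4 and 53.8, then 97.5 and 109.5, then 177 and 138 FPKM in EGFP+ cells. In EGFP- cells *Xpr1* measured 24.1 and 19.7, then 30.2 and 42.3, then 77.7 and 57.8 FPKM. *Xpr1* rose by 0.87 from E11.5 to E13.5 in EGFP+ cells (SE 0.20, limma adjusted p = 0.00358), and its later change there was 0.59. *Ppp2r2c* (chromosome 5, 36868513 to 36955078, plus strand) measured 9.16 and 9.49, then 37.6 and 33.3, then 65.2 and 81.2 FPKM in EGFP+ cells. In EGFP- cells *Ppp2r2c* started at 0.458 and 0.467, and reached 2.26 and 3.66, then 8.31 and 10.1 FPKM. Its early rise of 1.82 in EGFP+ cells (SE 0.19, adjusted p = 1.64e-05) was the largest early step of the 10 genes, and its ratio between the populations fell from 20.2 at E11.5 through 11.96 to 7.95.

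*Caly* (chromosome 7, 140069880 to 140082548, minus strand) was well above its EGFP- level in EGFP+ cells at each stage and was highest at E15.5 in both populations. It measured 15.7 and 13.45, then 17.3 and 15.9, then 48.6 and 33.8 FPKM in EGFP+ cells. In EGFP- cells it measured 2.21 and 1.80, then 3.57 and 3.56, then 9.89 and 7.85 FPKM. The step from E11.5 to E13.5 was 0.61 in EGFP- cells (SE 0.19, limma adjusted p = 0.0177) and 0.18 in EGFP+ cells (adjusted p = 0.447). The test of the difference between these steps gave -0.43 (SE 0.27, adjusted p = 0.238).

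Promoters of some of the genes are shown so that the sequence context can be read beside the values. They are those of *Kcnip2*, whose level parted between the populations, *Spock1*, highest at E15.5 in both, and *Ppp2r2c* and *Xpr1*, which rose early. Each is the 250 bases upstream of the RefSeq start on GRCm38.p6, written 5′ to 3′ on the gene's strand, at chr19:45816064-45816313 (minus), chr13:57908333-57908582 (minus), chr5:36868260-36868509 (plus) and chr1:155417445-155417694 (minus). CpG dinucleotides are in capitals.
Kcnip2: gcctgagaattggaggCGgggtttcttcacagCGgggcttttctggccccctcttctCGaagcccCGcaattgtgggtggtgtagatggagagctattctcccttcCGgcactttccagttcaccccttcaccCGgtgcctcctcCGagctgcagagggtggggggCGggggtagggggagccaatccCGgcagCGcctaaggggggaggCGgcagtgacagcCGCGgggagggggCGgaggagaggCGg
Spock1: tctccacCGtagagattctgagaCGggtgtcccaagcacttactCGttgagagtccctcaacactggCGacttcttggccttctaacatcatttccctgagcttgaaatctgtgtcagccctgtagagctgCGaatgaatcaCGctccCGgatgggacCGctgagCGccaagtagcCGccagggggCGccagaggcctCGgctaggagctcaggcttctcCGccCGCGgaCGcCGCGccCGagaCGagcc
Ppp2r2c: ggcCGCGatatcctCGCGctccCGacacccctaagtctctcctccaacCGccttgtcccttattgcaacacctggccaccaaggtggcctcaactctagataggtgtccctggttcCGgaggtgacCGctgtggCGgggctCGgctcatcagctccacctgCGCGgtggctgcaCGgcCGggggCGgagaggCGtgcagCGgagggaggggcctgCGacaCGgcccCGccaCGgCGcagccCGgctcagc
Xpr1: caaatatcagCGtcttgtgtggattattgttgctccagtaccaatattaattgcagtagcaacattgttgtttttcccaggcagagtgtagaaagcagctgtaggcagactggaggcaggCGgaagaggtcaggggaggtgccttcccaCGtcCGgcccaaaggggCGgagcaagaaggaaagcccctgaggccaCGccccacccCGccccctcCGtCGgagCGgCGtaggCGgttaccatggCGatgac
These windows hold 15, 20, 23 and 13 CpG. RefSeq windows were matched for 9 of the 10 genes, with 2 windows for *Caly*, and *Ndnf* was not matched. The RefSeq starts used for *B3gat1*, *Cacna2d2*, *Spock2*, *Clstn2* and the downstream window of *Caly* lie inside their GENCODE genes. The windows of *B3gat1* and *Cacna2d2* lie wholly inside. The CpG count in the 10 windows ran from 2 (*B3gat1*) to 34 (*Clstn2* and *Cacna2d2*), beside a median of 6 over 32851 promoters of this length. A search of both strands for the palindrome CCCNNGGG, the core of the motif bound by EBF factors, found it in 0 of the 10 windows and in 11.8% of all promoters. TATAAA was in 0 of the 10 and in 12.4% of all promoters. The E-box CAGCTG was in 2 of the 10, those of *Xpr1* and *B3gat1*, and in 13% of all promoters. A match or its lack describes only these letters in these windows.

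Before E15.5 the populations already differed. At E11.5, 9 of the 10 genes were called higher in EGFP+ cells, all but *Ndnf*, where 36.8% of listed genes were called higher. At E13.5 the same 9 were called higher, against 32.1% of listed genes. None was called lower at either stage by limma, where 44.9% and 43.5% of listed genes were, and none had an unadjusted p under 0.05 in that direction. Both EGFP+ libraries lay above both EGFP- libraries in 9 genes at E11.5 (42.5% of listed genes), in 10 at E13.5 (39.1%) and, in libraries that chose the genes, in 10 at E15.5 (34.7%). The difference at E11.5 ran from 1.32 (*Xpr1*) to 2.82 (*Ppp2r2c*) among the 9 genes, with a median over the 10 of 1.69 against -0.19 over all listed genes. The median over the 10 was 1.89 at E13.5, then 2.18 at E15.5. The listed genes are those reported as differential on these libraries, and 8 of the 10, all but *Ndnf* and *Kcnip2*, also meet the study's CR-specific rule of at least 5 FPKM in EGFP+ cells and a 2-fold difference at all 3 stages, so these counts are not independent evidence of a population difference.

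Timing was compared step by step. From E11.5 to E13.5 in EGFP+ cells, 3 of the 10 genes rose (*Xpr1*, *Ppp2r2c* and *B3gat1*) and 1 fell (*Cacna2d2*). Of listed genes, 21.8% and 36.1% were called up and down. The rule read these E11.5 and E13.5 means, without fixing their order, so the calls are not independent of the choice of genes. The paper also names *Clstn2*, *Spock1*, *Spock2*, *Xpr1*, *Caly* and *B3gat1* among genes whose expression rose steadily from E11.5 to E15.5. *Clstn2* was not called, at 0.99 (SE 0.48, limma adjusted p = 0.0962), and was called with the replicate number as a block (adjusted p = 0.0473). Over the same step in EGFP- cells 4 genes rose (*Xpr1*, *Caly*, *Ppp2r2c* and *B3gat1*) and *Cacna2d2* fell, where 26% and 33.5% of listed genes were called. The calls of *Xpr1*, *Caly* and *B3gat1* in EGFP- cells were lost without E13.5 replicate 2 (limma adjusted p = 0.13, 0.0662 and 0.0651). Those of *Xpr1* and *Caly* were also lost without E11.5 replicate 2 (adjusted p = 0.0955 and 0.106), and that of *B3gat1* without E11.5 replicate 1 (adjusted p = 0.0528). In EGFP+ cells the call of *B3gat1* was lost without replicate 2 of E11.5 or of E13.5 (adjusted p = 0.0631 and 0.0674), and so was that of *Cacna2d2* (adjusted p = 0.159 and 0.0764).

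The step from E13.5 to E15.5 brought more calls. In EGFP- cells 8 of the 10 genes rose over it, all but *Ndnf* and *Cacna2d2*, against 28.8% of listed genes, and none was called lower, where 34.8% of listed genes were, or had an unadjusted p under 0.05 in that direction. *Ndnf* measured 0.06 (limma adjusted p = 0.921). *Cacna2d2* measured 0.60 (adjusted p = 0.0523) and was called higher, as a ninth gene, with 0.1 added (adjusted p = 0.0107), with median-of-ratios scaling (0.0371), with mean FPKM of 1 or more (0.0481), with untrended moderation (0.0499), with the compared groups only (0.0271) and without EGFP+ E15.5 replicate 1 or 2 (0.0278 and 0.0281). In EGFP+ cells the untested change over this step ran from 0.59 (*Xpr1*) to 4.47 (*Ndnf*), with a median of 1.92, beside 0.42 over the early step. In EGFP- cells the corresponding medians were 1.24 and 0.42. Of the 10 genes, *Xpr1* and *Ppp2r2c* had a larger increase on the log2 scale over the early than the late step in EGFP+ cells. In EGFP- cells the steps of *Ppp2r2c* were near equal, at 1.42 and 1.38 (SE 0.19). Over the fits without 1 library they ran from 1.16 to 1.67 and from 1.12 to 1.64, so their order was not settled.

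**Figure D2:**
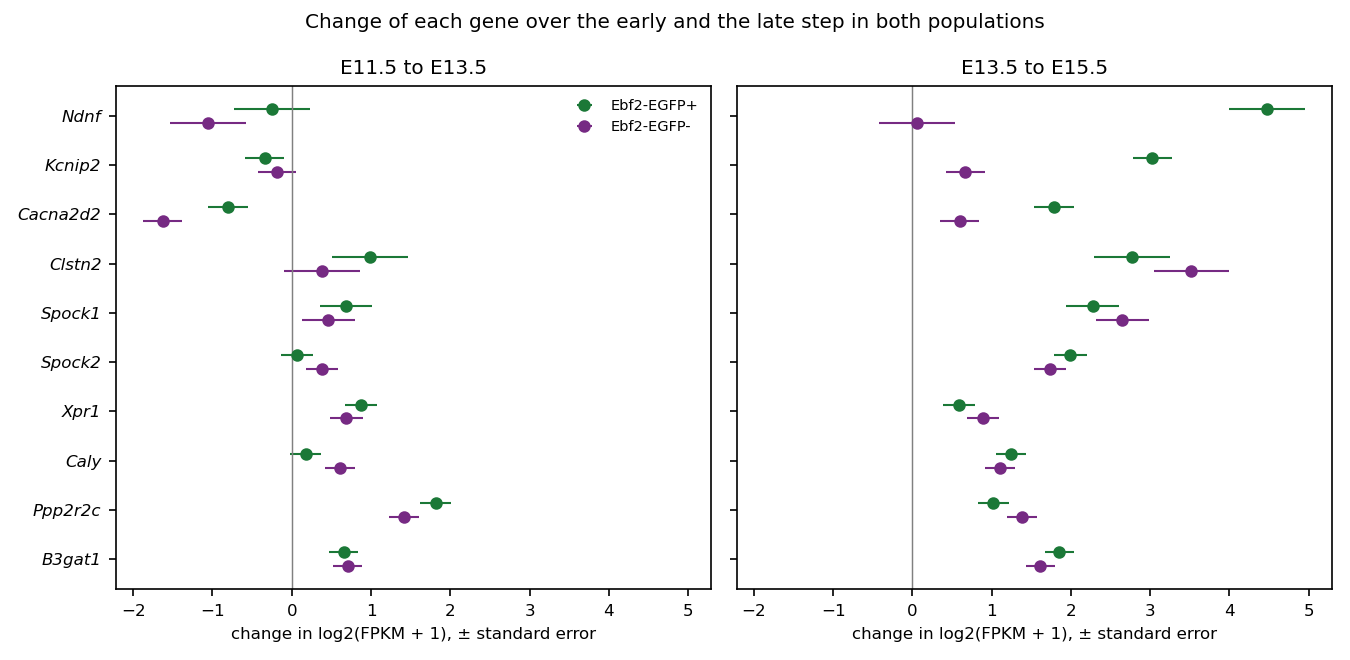
Change in log2(FPKM + 1) of each gene from E11.5 to E13.5 (left) and from E13.5 to E15.5 (right), with bars of 1 SE of the limma fit; green is EGFP+ and purple EGFP-. On the right the green point of *Ndnf* stands at 4.47 and its purple point at 0.06, while the points of *Spock2*, *Caly* and *B3gat1* lie close together.

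Whether the early step differed between the populations was tested directly. None of the 10 genes was called (limma), against 15.6% of listed genes upward and 19.6% downward, and 1, *Cacna2d2*, had an unadjusted p under 0.05. Its difference was 0.83 (SE 0.35, adjusted p = 0.0884), with a smaller fall in EGFP+ than in EGFP- cells. With the replicate number as a block *Cacna2d2* and *Clstn2* were called (adjusted p = 0.0184 and 0.015), with differences of 0.83 and 0.61. For the other 8 genes the difference lay between -0.43 (*Caly*) and 0.81 (*Ndnf*).

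The size of the whole change from E11.5 to E15.5 could be set side by side but not tested, since its EGFP+ side chose the genes. For *Ndnf*, *Kcnip2* and *Cacna2d2* the log2 differences were 4.23, 2.69 and 0.99 in EGFP+ cells and -0.998, 0.48 and -1.03 in EGFP- cells. The excess in EGFP+ cells was thus 5.22 for *Ndnf* (SE 0.68), 2.21 for *Kcnip2* (0.34) and 2.01 for *Cacna2d2* (0.35). For the other 7 genes the changes ran from 1.42 (*Caly*) to 3.76 (*Clstn2*) in EGFP+ cells and from 1.58 (*Xpr1*) to 3.90 (*Clstn2*) in EGFP- cells, with differences between -0.29 (*Caly*, SE 0.27) and 0.19 (*B3gat1*, 0.26). Without EGFP+ E15.5 replicate 1 or 2 that difference was 0.47 and -0.76 for *Clstn2*, 0.15 and -0.27 for *Spock2*, -0.30 and 0.06 for *Xpr1* and 0.20 and -0.12 for *Ppp2r2c*, so its sign in these genes turned with 1 library. Because 1 is added before the log, this scale understates change where levels start low. For *Ppp2r2c*, at 0.462 ± 0.00646 FPKM in EGFP- cells at E11.5, the difference was 0.04 with 1 added and -1.09 with 0.1 added. With 0.1 added the difference was -0.62 for *Clstn2*, -0.61 for *Caly*, -0.51 for *Spock1* and -0.37 for *Spock2*. It was then -0.14 for *Xpr1* and 0.0998 for *B3gat1*.

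In mean FPKM, the ratio of EGFP+ to EGFP- narrowed between E11.5 and E15.5 in 6 genes (*Clstn2*, *Spock1*, *Spock2*, *Xpr1*, *Caly* and *Ppp2r2c*) and widened in 4 (*Ndnf*, *Kcnip2*, *Cacna2d2* and *B3gat1*). The narrowing was strongest in *Ppp2r2c*, from 20.2 to 7.95, and slight in *Xpr1*, from 2.56 to 2.32. *Spock2* and *Caly* ended at 5.18 and 4.65 from starts of 6.87 and 7.27.

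**Figure D3:**
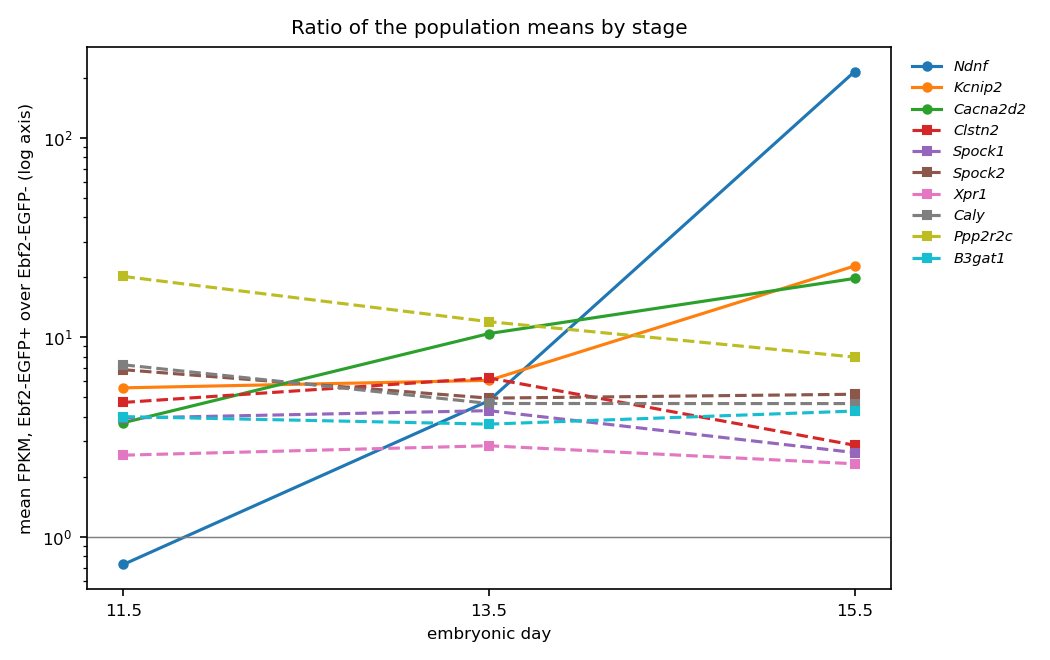
Ratio of mean FPKM in EGFP+ over EGFP- cells (log axis, 2 libraries in each mean) against embryonic day, with a grey line at 1. Solid lines are *Ndnf*, *Kcnip2* and *Cacna2d2*, and dashed lines the 7 genes called higher in EGFP- cells at E15.5 than at E11.5. *Ndnf* goes from 0.725 to 215, *Kcnip2* and *Cacna2d2* end at 22.8 and 19.7, and the dashed lines end between 2.32 and 7.95.

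Several marker lists, but not all, also moved between E11.5 and E15.5 in both populations. In EGFP- cells the 6 cortical plate markers summed to 70.7 and 72.2 FPKM at the start and 704 and 871 at the end. The 6 pan-neuronal markers there summed to 612 and 666 FPKM and then 1906 and 2468. The 6 radial glia markers summed to 1295 and 1569 FPKM and then 436 and 788. The 8 CR markers summed to 12.02 and 13.3 FPKM and then 16.5 and 24.0, so their largest sum there stayed far below the 564 FPKM of the lower EGFP+ library at E15.5. The 5 meninges or fibroblast markers went in sum from 108 to 126 FPKM at E11.5 to 2.61 to 3.51 at E15.5 in EGFP- cells, and the 3 listed erythroid markers from 1302 to 2743 FPKM to 0.175 to 0.187. In EGFP+ cells over the same interval, cortical plate markers went from 207 to 259 FPKM to 674 to 1030 and radial glia markers from 404 to 427 FPKM to 86.0 to 149. The pan-neuronal markers overlapped between these stages in EGFP+ cells, at 2929 to 3383 FPKM and then 2983 to 3274. There the meninges or fibroblast markers went from 41.6 to 46.8 FPKM to 0.884 to 2.74, and the erythroid markers from 32.7 to 96.7 FPKM to being listed at 0 in both libraries. The 4 listed subplate markers went in sum from 116 to 124 FPKM at E11.5 to 36.4 to 74.1 at E15.5 in EGFP+ cells. In EGFP- cells they went from 24.3 to 25.7 FPKM to 28.1 to 52.3. The part of these marker changes in the changes of the 10 genes was not tested.

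Replicate differences at E15.5 ran along the same division of the genes. There the ratio of replicate 2 to replicate 1 was close in both populations for *Clstn2* (2.35 and 2.52), *Spock2* (1.35 and 1.31), *Ppp2r2c* (1.24 and 1.22), *B3gat1* (1.12 and 1.11), *Spock1* (1.14 and 1.04), *Xpr1* (0.778 and 0.743) and *Caly* (0.695 and 0.794), given for EGFP+ and then EGFP- cells. It was not for *Ndnf* (4.23 and 0.842), *Kcnip2* (1.92 and 0.995) and *Cacna2d2* (1.66 and 0.892), which were higher in replicate 2 in EGFP+ cells alone. Summed CR markers were also higher in EGFP+ replicate 2, at 1150 FPKM beside 564, mostly by *Reln* at 925 beside 399. The other CR markers differed by less in FPKM, and *Lhx1* was lower in replicate 2, at 3.16 beside 3.90. The part of these marker differences in the 3 genes was not tested. Without that replicate the change from E11.5 to E15.5 in EGFP+ cells was 2.23 for *Kcnip2* and 0.63 for *Cacna2d2*, and the median over the 10 genes was 2.33 in place of 2.60.

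**Figure D4:**
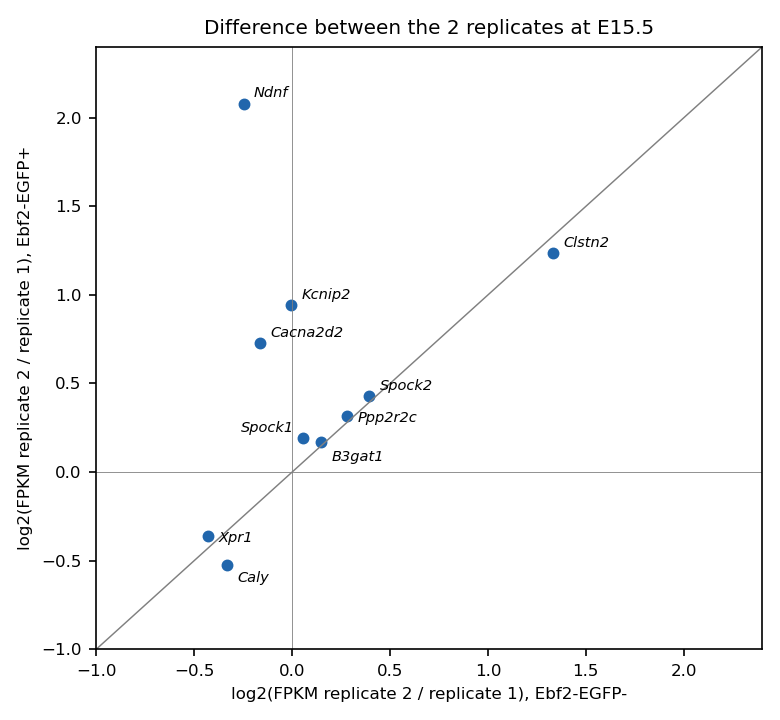
Log2 ratio of FPKM in replicate 2 over replicate 1 at E15.5, EGFP- on the horizontal and EGFP+ on the vertical axis, 1 point for each gene, with a diagonal line of equality. *Ndnf*, *Kcnip2* and *Cacna2d2* lie above the line, with replicate ratios of 4.23, 1.92 and 1.66 in EGFP+ cells, and the other 7 genes lie near it.

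Relatives of the 10 genes, 46 in 8 families, were followed to see what the families shared, and 34 of them were listed. From E11.5 to E15.5 in EGFP- cells 24 of the 34 rose and 7 fell, where 37.7% and 47.6% of all listed genes did. In EGFP+ cells 13 rose and 5 fell from E11.5 to E13.5, beside 21.8% and 36.1% of listed genes, and 25 had their highest mean at E15.5, beside 38.9%. Of 13 listed calcium channel subunits 10 had that peak, and 12 were called higher in EGFP+ cells at E13.5, as 32.1% of listed genes were. The families were chosen with these data known, and the counts are descriptions.

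Within the families the patterns varied. *Cacna2d1*, another alpha2delta subunit of calcium channels, was 3.57 higher in EGFP+ cells at E11.5 on the log2 scale (SE 0.26, limma adjusted p = 5.59e-07) and 0.83 higher at E15.5, while the difference of *Cacna2d2* stood at 1.72 and 3.73. That of *Cacna2d3*, also an alpha2delta subunit, went from 0.69 at E11.5 (adjusted p = 0.00537) through 2.08 at E13.5 (adjusted p = 6.31e-06) to 2.50 at E15.5, and its E15.5 mean in EGFP+ cells was 3.30 times its next highest stage. The pore subunit *Cacna1e* was 2.99 higher at E13.5 (adjusted p = 3.42e-06). *Sparc*, a matrix protein of the same family as the testicans, was lower in EGFP+ cells, by -2.95 at E11.5 (adjusted p = 3.18e-06) and -3.21 at E13.5 (adjusted p = 5.62e-06). Of 5 listed relatives in that family 2, *Sparcl1* and *Smoc2*, had their highest EGFP+ mean at E15.5. So did 4 of 6 listed Kv4 complex relatives and 2 of 2 calsyntenin relatives. *Kcnd3*, a Kv4 channel subunit, was 1.69 higher in EGFP+ cells at E11.5 (adjusted p = 5.44e-06) and 0.49 higher at E15.5. The calsyntenin *Clstn3* was 1.39 higher at E11.5 (adjusted p = 1.53e-05) and 0.48 higher at E15.5. Among the other families, *Nsg2*, a relative of *Caly*, started 2.70 higher in EGFP+ cells (adjusted p = 2.92e-07) and ended level at -0.01. *Ppp2r2b*, the only one of 7 PP2A relatives listed, went from 2.58 higher (adjusted p = 3.01e-07) to 0.48 higher. *B3gat2*, another glucuronyltransferase of HNK-1 synthesis, went from 0.08 (adjusted p = 0.768) at E11.5 to 1.41 at E15.5. The phosphate transporter *Slc20a2* was lower in EGFP+ cells at E11.5, by -1.32 (adjusted p = 4.59e-05), where the exporter *Xpr1* was higher.

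The listed genes most like each of the 10 were found by Pearson's r of log2(FPKM + 1) over the 12 libraries, as a description of points that hold 6 groups of 2 replicates. For *Ndnf* they were *Ripk4*, *Wnt4* and *Fibin* (r = 0.989, 0.983 and 0.975). For *Kcnip2* they were *Rcan3*, *Ache* and *Car10* (r = 0.987, 0.986 and 0.985), of which *Ache* encodes acetylcholinesterase. For *Cacna2d2* they were *Ptprn*, *Adam23* and *Arhgef28* (r = 0.983, 0.973 and 0.967). *Gabbr2*, a GABA-B receptor subunit, was among the closest to both *Clstn2* (r = 0.979) and *Spock1* (r = 0.983). *Lingo1* was among the closest to *Spock2* (r = 0.988) and *Caly* (r = 0.985), and *Dnm3* to *B3gat1* (r = 0.990). *Pak6* led for *Xpr1* (r = 0.987). The mean profile of the 10 genes was most like *Trpv2* (r = 0.991), *Sprn* (r = 0.987) and *Galnt9* (r = 0.984). Among the 10 genes themselves the closest pairs were *Spock2* with *B3gat1* (r = 0.983) and *Clstn2* with *Spock1* (r = 0.982).

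Scaling the libraries by median-of-ratios factors moved the median of all listed genes by 0.13 to 0.19 in the population differences, by 0.22 for the change from E11.5 to E15.5 in EGFP- cells and by 0.14 in EGFP+ cells. Under it the counts of genes called higher were 9 at E11.5, 9 at E13.5 and 7 for the change in EGFP- cells between E11.5 and E15.5, as without it. The fall of *Cacna2d2* from E11.5 to E13.5 in EGFP+ cells was then -0.59 (limma adjusted p = 0.0587) and no longer called.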

How the data were processed

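Total RNA from FACS-selected Ebf2-EGFP+ and Ebf2-EGFP- cortical cells was captured on oligo-dT beads and sequenced as paired ends by the authors. They aligned reads with TopHat2 2.0.8b to mm10 and computed the deposited FPKM per gene with Cufflinks 2.2.0 (versions from the submitters' processing notes); strand and any further scaling between libraries are not given in the sources used here. The deposited tables hold FPKM for 12 libraries, 4859 coding genes and 200 lncRNA transcripts, all reported as differential by the authors, and not the whole transcriptome. They also hold the authors' means, fold changes, p-values and q-values of the population comparisons, which were not used. FPKM keeps no counts, so the depth of each library is unknown and no counting interval is given. FPKM summed over the listed genes ran from 111136 to 146703 per library.

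Libraries were grouped by population and stage from their labels. FPKM were analysed as log2(FPKM + 1), without a filter, by limma 3.58.1 (R 4.3.3) in 1 model of 12 libraries and 6 groups, with trended moderation of variances, two-sided tests and Benjamini-Hochberg adjustment over 4859 genes in each comparison. Tested on simulated data for the population difference at E13.5, this fit recovered 183 of 200 changed genes and called 12 unchanged ones among 4859 genes.

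The 10 genes, their 46 relatives and the marker lists were chosen with earlier results of these data known. Named genes were the 10, the 1 or 2 with the largest population difference in each family of relatives, and the 3 genes most like each of the 10, of which only some are printed and 1 is not reported here. *Cacna2d3*, *Sparcl1* and *Smoc2* were added after their values were seen. Within a stage both populations carry replicate numbers 1 and 2. Subtracting group means left residuals that correlated over genes between libraries of the same number (r = 0.43, 0.53 and 0.43 by stage), so the numbers were treated as pairs when used as a block. Gene positions came from GENCODE M21 and promoters from RefSeq, both on GRCm38, the assembly also called mm10. Alternatives were median-of-ratios scaling, a pseudocount of 0.1, untrended moderation, only genes with mean FPKM 1 or more, fitting the compared groups alone, the replicate block, a stricter threshold of 0.01, and omission of each library in turn.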

Additional observations from a re-analysis of the deposited data

Results flagged for a closer look

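In *Ndnf* every EGFP+ library was higher at E15.5 than at E11.5 and every EGFP- library was lower, and the change of the population difference over that interval was 5.22 on the log2 scale. The same held for *Cacna2d2*, with a change of 2.01. The difference between the populations was not tested in either gene, because its EGFP+ side at E15.5 chose the genes. Leaving out EGFP+ E15.5 replicate 1 or 2 gave 6.23 and 4.21 for *Ndnf* and 2.37 and 1.66 for *Cacna2d2*.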

How the results depend on the processing

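With 2 libraries per group, a fit that leaves 1 out assumes that the lone library varies like the other groups. In EGFP- cells between E11.5 and E13.5, 4 genes were called higher, 2 at a threshold of 0.01, and 1 to 5 over the fits without 1 library, the lowest without EGFP- E13.5 replicate 2. The genes called lower there, and from E11.5 to E15.5, went from 1 to 2 in both cases with a pseudocount of 0.1 and with the compared groups only, by the addition of *Ndnf*, and were 1 to 2 over the fits without 1 library. The 7 genes called higher from E11.5 to E15.5 became 8 under the same settings, by *Kcnip2*, and the 8 of the late step were 7 to 9 over all alternatives. The 1 gene called lower from E11.5 to E13.5 in EGFP+ cells (*Cacna2d2*) became 0 at a threshold of 0.01 and with median-of-ratios scaling, and was 0 to 1 over the fits without 1 library. For the difference of the early step between the populations, the 0 genes called higher became 1 with a pseudocount of 0.1 and with the compared groups only, and 2 with the replicate block. The block also called *Clstn2* in the early step of EGFP+ cells and changed no other call. The median change of the 10 genes from E11.5 to E15.5 in EGFP+ cells was 2.33 to 2.79 over the fits without 1 library. Values near 0 changed sign in the difference of the early step: *Kcnip2* to 0.0398 and *Ppp2r2c* to -0.49 with a pseudocount of 0.1, and *B3gat1* to 0.0232 with scaling; the causes were not tested. Over the fits without 1 library that difference ran from -0.31 to 0.00472 (*Kcnip2*), -0.33 to 0.78 (*Spock1*), -0.053 to 0.42 (*Xpr1*) and -0.33 to 0.23 (*B3gat1*), and that of the late step from -0.0389 to 0.52 (*B3gat1*). Over the same fits the early step ran from -0.71 to 0.21 (*Ndnf*) and -0.0412 to 0.17 (*Spock2*) in EGFP+ cells and from -0.15 to 0.91 (*Clstn2*) in EGFP- cells. Of the other values for single genes under the settings that kept all libraries, 592 stayed on their side of the threshold or within the spread, 23 moved past it without a test, 17 became called and 5 lost their call. The calls of *Clstn2*, *Spock1*, *Spock2*, *Xpr1*, *Caly*, *Ppp2r2c* and *B3gat1* as higher in EGFP- cells at E15.5 than at E11.5 held under every alternative tried. The unknown depth limits levels under 1 FPKM, as for *Ndnf* in EGFP- cells.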

Other observations

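Of 200 listed lncRNA transcripts, 196 were placed by GENCODE M21, and 2 lay within 500000 bp of any of the 10 genes, both beside *Clstn2*. *Gm16010* (422352 bp away) and *Gm16185* (355785 bp away) had their lowest levels in EGFP+ cells at E15.5, at 0.297 and 0.232 FPKM and at 0.474 and 0.754 FPKM, the stage at which *Clstn2* was highest. At E11.5 in the same population they measured 2.89 and 2.35 FPKM and 1.07 and 2.15 FPKM. In EGFP- cells, where *Clstn2* was also highest at E15.5, *Gm16010* measured 1.38 and 1.04 FPKM at E11.5 and 0.967 and 0.490 at E15.5. *Gm16185* there measured 1.36 and 2.63 FPKM, then 1.30 and 1.90, so its levels at these stages overlapped. A relation to *Clstn2* was not tested.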
